A study of Mus musculus with 12 samples.

Results

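The genes described here are the subunits of the vacuolar H+-ATPase (V-ATPase), the proton pump that acidifies lysosomes, together with the lysosomal cathepsins and the lysosomal membrane proteins LAMP1 and LAMP2. They were chosen by gene symbol, leaving out *Ctss* and *Ctsz*, and by a level of at least 0.5 CPM (counts scaled to library size) in any animal. Of 55397 genes in the count table, 42 carried such a symbol, 24 of them pump subunits and 18 cathepsins or LAMP genes. The floor was reached by 32 of the 42, which were 21 pump subunits and 11 cathepsins or LAMP genes, and these same 32 were among the 18264 genes tested. Their RNA was measured in primary cultures of newborn (P0) mouse brain, 3 animals heterozygous for a *Myt1l* frameshift, written (+/-) and labelled HET, and 3 (+/+) animals, labelled WT, with 2 libraries per animal. The (+/-) allele is a germline 7 bp deletion in exon 6 made with CRISPR/Cas9. All cultures shared medium with B27 and 5% FBS, and Ara-C, which kills dividing cells, at 2 µM after plating. The labels give male C57BL/6J pups and cortex, whereas the methods of the study name either hippocampus or cortex as the source of such cultures and C57BL/6N as the line used for breeding, and the study elsewhere calls the sequenced cultures hippocampal. Nothing in the sources used here says whether pups shared a litter, or what the library numbers 1 and 2 stand for.

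Lysosomes digest what a cell takes up and its own worn parts, and their enzymes work in acid. The pump has a peripheral V1 sector, which splits ATP, and a membrane V0 sector, which passes protons, and both are assembled from subunits that often exist as tissue-specific isoforms. Neurons use the same pump to fill synaptic vesicles with transmitter, while macrophages and microglia are known for high levels of several cathepsins. Many genes of the pump and of lysosomal enzymes share a short promoter element, the E-box CACGTG, which TFEB and related factors can bind.

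The 6 animals had 40642699 to 43745258 counts in (+/-) cultures and 43129302 to 52833161 counts in (+/+) cultures, and each animal, as the sum of its 2 libraries, was 1 replicate. Among the 28 members at 10 CPM or more, the libraries of the same animal differed by a median of 0.02 on the log2 scale and by 0.29 at most. *Myt1l* itself had 89.0 to 165 CPM in (+/-) cultures and 109 to 147 CPM in (+/+) cultures. The labels state that the mutant transcript is not degraded, so these levels do not check the genotype. Animal 511 of the (+/+) group had 18805 *Xist* counts against 5 to 10 in each of the other 5 animals, which goes against its male label. Animal 505 of the (+/-) group stood apart from the others in many members and is therefore also given separately. The lists of cell type markers moved between the genotypes as well, with values given beside the results they touch.

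Most but not all pump subunits lay below 0 between the genotypes and the cathepsins and LAMP genes above it, without a single member passing the test across all genes. Of the 11 cathepsins and LAMP genes, 11 had a positive log2 fold change ((+/-) over (+/+)), with a median of 0.21, and of the 21 pump subunits 17 had a negative one, with a median of -0.20. The 4 positive pump subunits include *Atp6v1c2* and *Atp6v0d2*, each of which reached the floor through a single (+/-) animal. Over all 18264 genes tested the median was 0.00, with 9200 positive and 9064 negative values. The quasi-likelihood test of edgeR called 0 of the 32 members at an adjusted p under 0.1, where it called 0% of all genes. Adjusted p-values of the members ran from 0.166 for *Ctsh* to 0.985 for *Atp6v1c2*. DESeq2 on the same 6 animals called 2 members higher, *Ctsh* and *Ctsc*, and 0 members lower at that threshold, beside 7.42% of all genes higher and 4.33% lower. At an unadjusted p under 0.05 in edgeR, 2 cathepsins and 2 pump subunits were higher in (+/-) cultures and 0 members were lower, beside 13.2% of all genes higher and 9.11% lower. Every (+/-) animal lay above every (+/+) animal in 4 of the 11 cathepsins and LAMP genes and in 0 of the 21 pump subunits, beside 15.5% of all genes. Every (+/-) animal lay below every (+/+) animal in 2 pump subunits and in 0 cathepsins or LAMP genes, beside 13.5% of all genes.

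The counts at an unadjusted p under 0.05 changed with the animal left out. The count of pump subunits higher in (+/-) cultures was 0 without animal 505 and 0 without animal 511, and 1 without any of the other 4. The count of pump subunits lower was 4 without animal 508 and 3 without animal 513. No share of all genes at that unadjusted p was at hand for these fits, so these counts have no background and are not read as results on the members. At an adjusted p under 0.1, the fit without animal 508 called 0% of all genes and that without animal 513 called 18.3%. The count of cathepsins and LAMP genes higher was 1 without animal 510. Without animal 505 the median log2 fold change was -0.10 over the pump subunits and 0.10 over the cathepsins and LAMP genes.

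**Figure D1:**
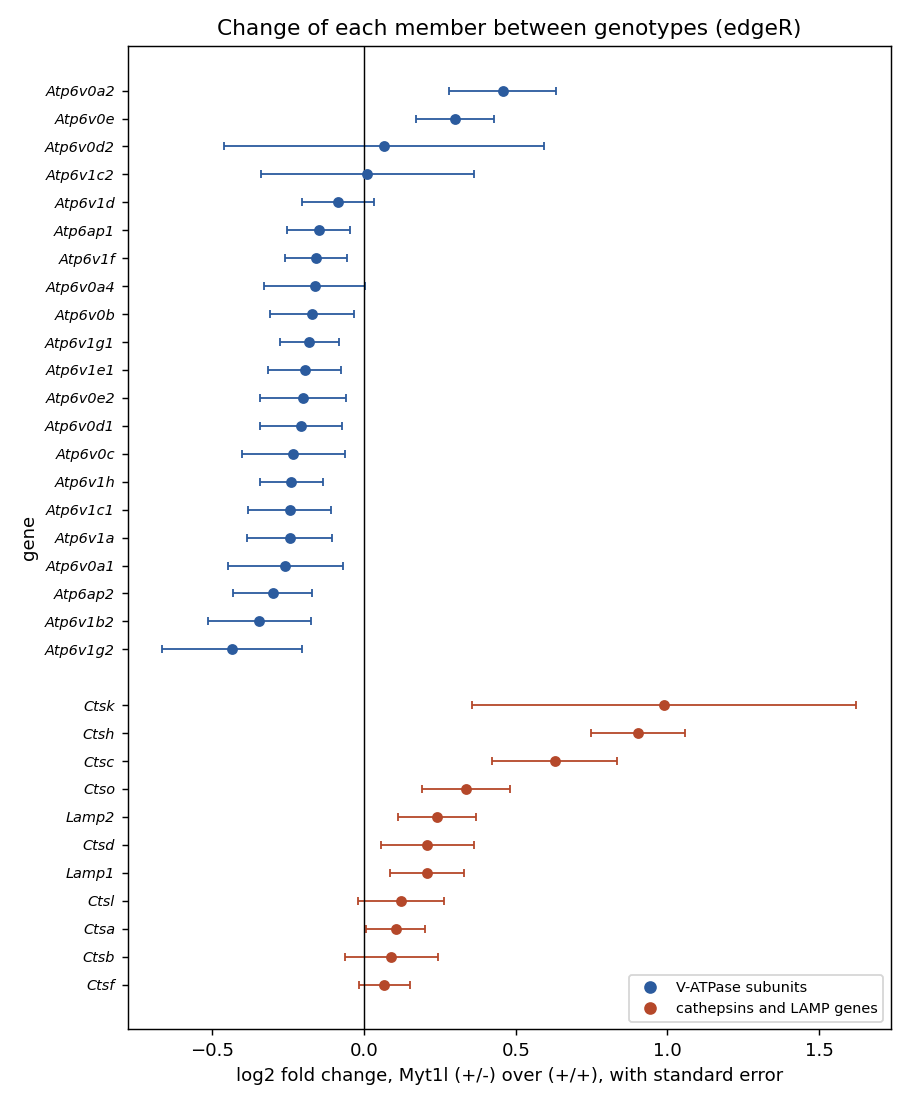
Each point is the log2 fold change of 1 member, (+/-) over (+/+), with its standard error from edgeR over 3 animals per genotype; V-ATPase subunits are blue and cathepsins with LAMP genes red. The 11 red points lie to the right of 0, from 0.07 to 0.99, and 17 of the 21 blue points to the left, with *Atp6v0a2* and *Atp6v0e* farthest to the right among the pump subunits.

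As a single value per animal, the mean log2(CPM + 0.5) of the pump subunits minus that of the cathepsins and LAMP genes was -1.45 in animal 505, -0.78 in 506 and -0.68 in 508 of the (+/-) group. The same difference was -0.53 in animal 510, -0.41 in 511 and -0.58 in 513 of the (+/+) group. All 3 (+/-) cultures thus lay below all 3 (+/+) cultures, animal 505 by the widest margin. The genotype means were -0.97 ± 0.42 for (+/-) and -0.50 ± 0.09 for (+/+) (SD, n = 3 each), a difference of -0.46, which was -0.22 without animal 505 and -0.42 without animal 511. Because the members were chosen with results of these data known, this score was not tested.

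The summed level of the 14 neuronal markers (among them *Tubb3*, *Map2* and *Snap25*) moved with this difference, at 2785, 4809 and 5295 CPM in animals 505, 506 and 508 of the (+/-) group, against 5683, 6304 and 5366 CPM in animals 510, 511 and 513 of the (+/+) group. None of the 14 was at 0, and 14 had a negative log2 fold change, with a median of -0.47 and 3 at an unadjusted p under 0.05, beside 9.11% of all genes. The summed level of the 15 microglia markers, of which *Siglech* was at 0 counts in every animal, was 357, 203 and 210 CPM in (+/-) cultures, against 138, 175 and 155 CPM in (+/+) cultures. Of the 14 tested, 14 had a positive log2 fold change, with a median of 0.94 and 10 at an unadjusted p under 0.05, beside 13.2% of all genes. The 7 border macrophage markers, none at 0, summed to 89.4, 35.2 and 42.3 CPM in (+/-) cultures, against 15.6, 41.6 and 16.7 CPM in (+/+) cultures. Neuronal markers were thus lowest and both macrophage lists highest in animal 505, which also had the lowest level in 16 of the 21 pump subunits and the highest in 10 of the 11 cathepsins and LAMP genes. By mean log2(CPM + 0.5) minus that of the (+/+) group, animal 505 was also highest in other marker lists. It stood at 2.435 for meningeal fibroblast, 1.96 for choroid plexus, 1.05 for ependymal, 0.91 for endothelial and 0.49 for astrocyte markers, beside 1.25 for microglia markers. The part of these lists in the results on the members was not tested, and in bulk RNA fewer cells of a type and less RNA per cell cannot be told apart.

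**Figure D2:**
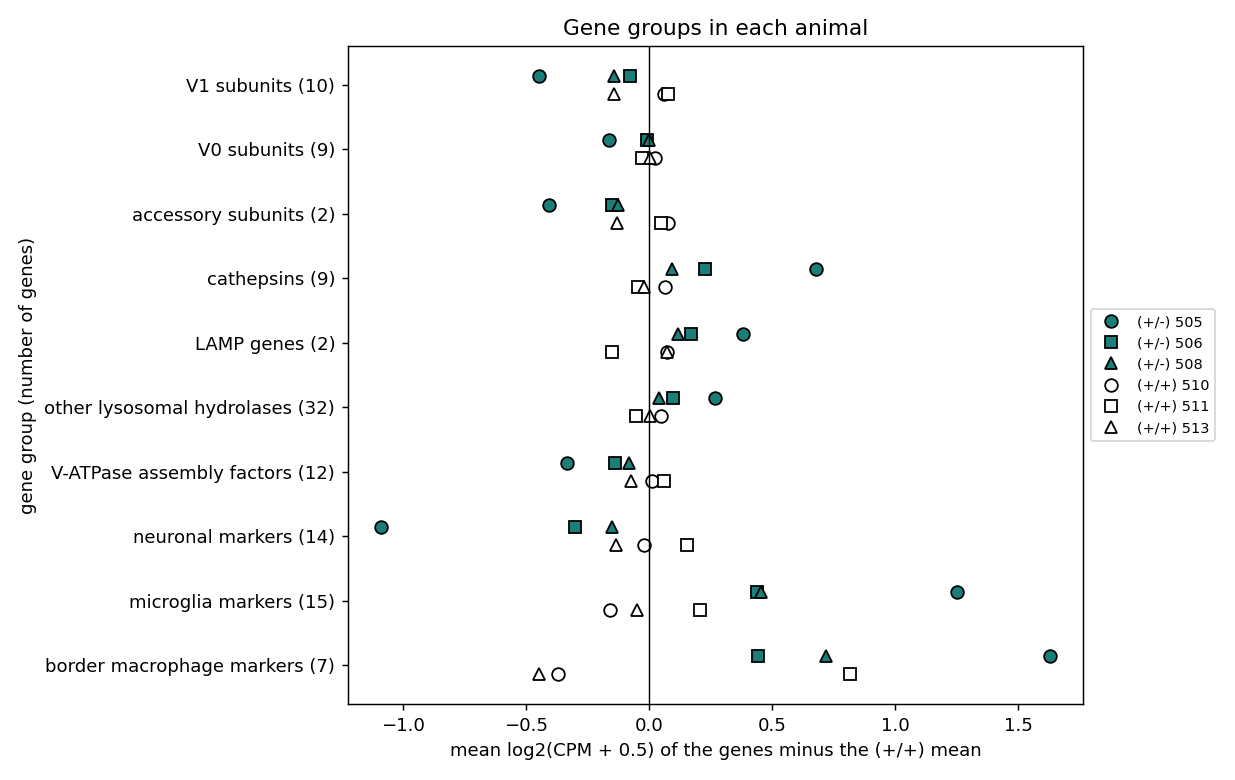
Each symbol is 1 animal, filled for (+/-) and open for (+/+), placed by the mean log2(CPM + 0.5) of a gene group minus the mean of the 3 (+/+) animals. Animal 505 lies farthest from 0 in each of the 10 groups, at -0.45 for V1 subunits, 0.68 for cathepsins, -1.09 for neuronal markers and 1.25 for microglia markers.

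*Ctsh*, which encodes an aminopeptidase of the cysteine cathepsin family, had the smallest p of the members. It was at 50.8, 36.2 and 35.9 CPM in animals 505, 506 and 508 of the (+/-) group, against 22.9, 19.5 and 23.3 CPM in animals 510, 511 and 513 of the (+/+) group. Each (+/-) culture was above each (+/+) culture, with animal 505 highest. The log2 fold change was 0.90 (SE 0.16), a 1.87-fold higher mean level, with an edgeR adjusted p of 0.166 and a two-sided exact permutation p of 0.1, the smallest that 3 animals against 3 can give. Without animal 505 the log2 fold change of *Ctsh* was 0.72. *Ctsh* lies on chromosome 9 (mm10, 90054152 to 90076089, plus strand).

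*Ctsc*, the dipeptidyl peptidase that activates granule proteases of immune cells, was at 20.4, 12.9 and 12.4 CPM in (+/-) cultures, against 9.13, 9.35 and 11.1 CPM in (+/+) cultures. The genotypes did not overlap, but animal 508 of the (+/-) group was close to animal 513 of the (+/+) group. The log2 fold change was 0.63 (SE 0.21), with an edgeR adjusted p of 0.175 and an exact permutation p of 0.1, and without animal 505 it was 0.36. DESeq2 gave adjusted p-values of 0.000244 for *Ctsh* and 0.0657 for *Ctsc* on the same 6 animals. With genetic sex as a covariate DESeq2 gave 0.0205 for *Ctsh* and 0.368 for *Ctsc*, and edgeR without the low-count filter gave adjusted p-values of 0.0165 for *Ctsh* and 0.0849 for *Ctsc*. Only animal 511 had high *Xist* counts, so the sex covariate fitted that animal alone and the genotypes were compared in the other animals.

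*Ctso*, a cysteine cathepsin whose substrates are poorly known, was at 89.2, 74.8 and 74.5 CPM in (+/-) cultures, against 62.3, 51.8 and 74.9 CPM in (+/+) cultures. Animal 513 reached the level of the (+/-) animals 506 and 508, so the genotypes overlapped, and the edgeR adjusted p was 0.225 at a log2 fold change of 0.34 (SE 0.15). *Ctsk*, the collagen-degrading cathepsin best known from osteoclasts, had the largest fold change of the members and the least even one. It was at 11.6, 2.97 and 2.41 CPM in (+/-) cultures, against 3.32, 3.87 and 1.38 CPM in (+/+) cultures. Animal 505 alone stood above the rest, and the log2 fold change of 0.99 had an SE of 0.63 and an edgeR adjusted p of 0.351. Markers of meningeal fibroblasts (8 genes such as *Col1a1* and *Dcn*, none at 0) were also highest in animal 505, with a summed level of 340 to 1380 CPM in (+/-) cultures and 165 to 705 CPM in (+/+) cultures. Of the 6 osteoclast-like markers, 3 passed the low-count filter, and the list summed to 10.9 to 15.3 CPM in (+/-) cultures and 9.06 to 10.5 CPM in (+/+) cultures. *Acp5*, also a lysosomal hydrolase and the most abundant of the 3, had a log2 fold change of 0.76, and *Mmp9* and *Oscar* had -0.53 and -0.17.

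The abundant cathepsins overlapped between the genotypes. *Ctsd*, the main aspartic protease of the lysosome, was at 2315, 2046 and 1703 CPM in (+/-) cultures, against 1813, 1597 and 1840 CPM in (+/+) cultures. The genotypes overlapped, with an edgeR adjusted p of 0.405 at a log2 fold change of 0.21 (SE 0.15). Its level is uncertain, because 34.4% of its exonic bases are shared with the same-strand gene *Gm49369*, whose count was 54.2% to 55.4% of that of *Ctsd* in each animal. *Ctsb*, a cysteine protease that works as endo- and exopeptidase, was at 2106, 1814 and 1568 CPM in (+/-) cultures, against 1809, 1535 and 1814 CPM in (+/+) cultures. *Ctsl*, a cysteine endopeptidase, was at 381, 312 and 276 CPM in (+/-) cultures, against 329, 278 and 283 CPM in (+/+) cultures. In both genes animal 505 was highest, the other 2 (+/-) animals lay within the range of the (+/+) group or below it, and the small positive log2 fold changes of 0.09 for *Ctsb* and 0.12 for *Ctsl* turned to -0.02 and -0.01 without animal 505. *Ctsa*, the carboxypeptidase that protects lysosomal neuraminidase, was at 165, 146 and 138 CPM in (+/-) cultures, against 142, 143 and 134 CPM in (+/+) cultures. *Ctsf*, a cysteine cathepsin whose loss in humans causes a neuronal ceroid lipofuscinosis, was at 77.0 to 85.4 CPM in (+/-) cultures and 76.4 to 81.8 CPM in (+/+) cultures. Neither *Ctsa* nor *Ctsf* separated the genotypes, with edgeR adjusted p-values of 0.508 and 0.615. Without knowledge of the strand setting of the counting, reads of opposite-strand neighbours (*Fdft1* for *Ctsb*, 12.8% of its exonic bases, and *Pltp* for *Ctsa*, 10.5%) cannot be told apart from those of these genes.

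The LAMP genes encode the most abundant glycoproteins of the lysosomal membrane. *Lamp1* was at 957, 878 and 841 CPM in (+/-) cultures, against 794, 691 and 833 CPM in (+/+) cultures. *Lamp2*, one of whose isoforms serves chaperone-mediated autophagy, was at 395, 321 and 313 CPM in (+/-) cultures, against 311, 263 and 297 CPM in (+/+) cultures. Each (+/-) culture was above each (+/+) culture in both genes, with animals 508 and 513 close together for *Lamp1* and animals 508 and 510 for *Lamp2*. The log2 fold changes were 0.21 (SE 0.12) for *Lamp1* and 0.24 (SE 0.13) for *Lamp2*, with exact permutation p-values of 0.1 and edgeR adjusted p-values of 0.315 and 0.279. Animal 511, lowest in both, also had the lowest level of 7 of the 11 cathepsins and LAMP genes.

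**Figure D3:**
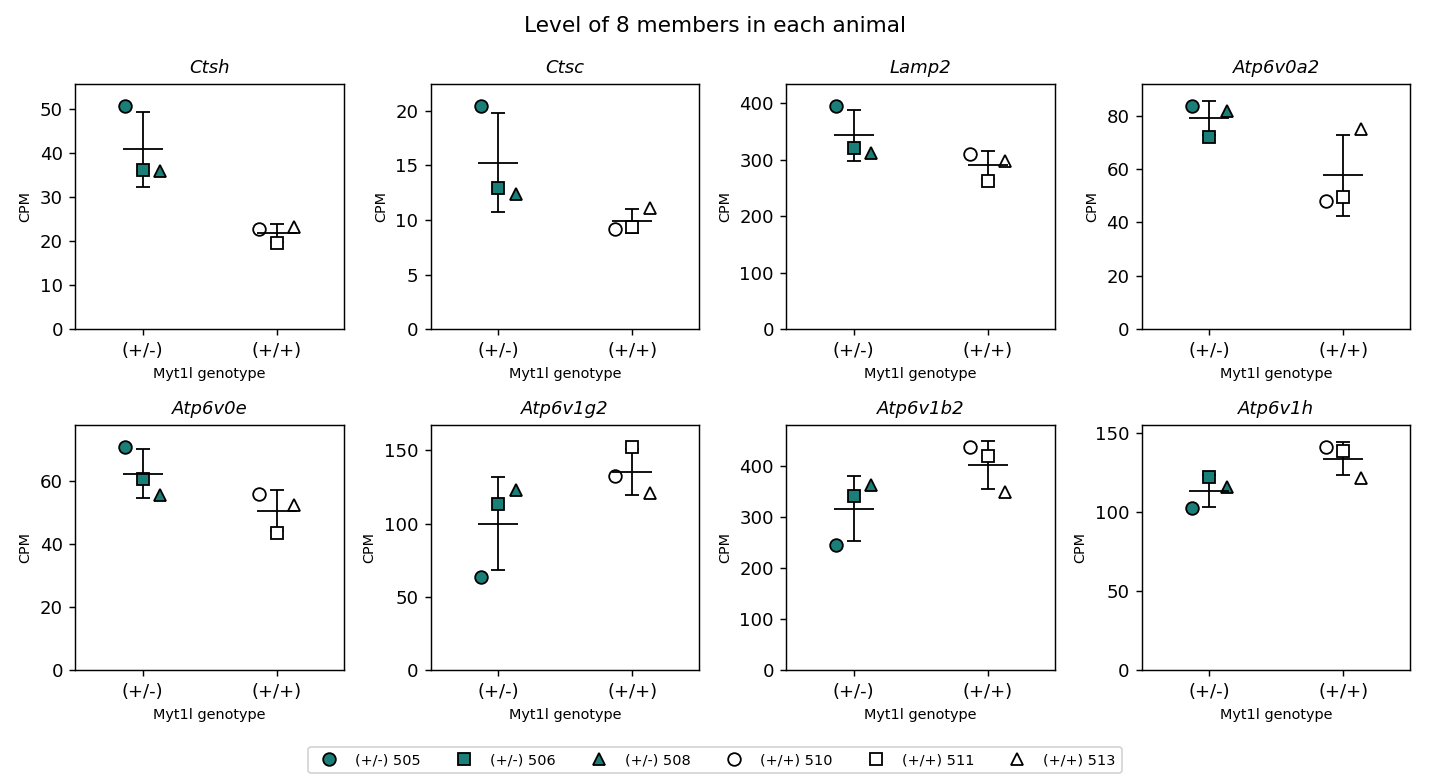
Each panel plots the CPM of 1 gene in each animal (symbols, filled for (+/-) and open for (+/+)), with the mean and SD of 3 animals as a bar. *Ctsh*, *Ctsc* and *Lamp2* do not overlap between the genotypes, whereas the 5 pump subunits shown do.

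Of the 10 tested subunits of the V1 sector, 9 had a negative log2 fold change, with a median of -0.22, and 0 passed the test. *Atp6v1h*, the regulatory subunit that couples V1 to V0, was at 103, 122 and 116 CPM in (+/-) cultures, against 141, 139 and 122 CPM in (+/+) cultures. Animals 506 and 513 met at the same level, and the log2 fold change was -0.24 (SE 0.10) with an edgeR adjusted p of 0.226. *Atp6v1b2*, the B subunit of brain and most other tissues, which forms the ATP-splitting head with the A subunit, was at 245, 342 and 364 CPM in (+/-) cultures, against 437, 421 and 349 CPM in (+/+) cultures. Its log2 fold change was -0.34 (SE 0.17) with an edgeR adjusted p of 0.254, and -0.19 without animal 505. *Atp6v1g2*, the neuronal isoform of the stalk subunit G, had the lowest log2 fold change of the members, -0.43 (SE 0.23). It was at 63.8, 113 and 123 CPM in (+/-) cultures, against 132, 152 and 121 CPM in (+/+) cultures. Animals 506 and 508 were near the lower (+/+) animals and animal 505 far below, so the genotypes overlapped. The edgeR adjusted p of *Atp6v1g2* was 0.279, and its log2 fold change was -0.20 without animal 505. *Atp6v1g1*, the widespread G isoform, was at 80.5, 88.8 and 81.0 CPM in (+/-) cultures, against 103, 95.1 and 85.4 CPM in (+/+) cultures, with overlap. *Atp6v1c1*, the widespread C subunit, which joins the stalk to the membrane sector, was at 89.4, 124 and 122 CPM in (+/-) cultures, against 132, 140 and 124 CPM in (+/+) cultures. It was 1 of the 2 pump subunits in which every (+/-) animal was below every (+/+) animal, although animals 506 and 513 were nearly equal, and its edgeR adjusted p was 0.297. *Atp6v1a*, the catalytic A subunit, averaged 504 ± 76.0 CPM in (+/-) cultures and 597 ± 49.4 CPM in (+/+) cultures (SD, n = 3 each). *Atp6v1d*, *Atp6v1e1* and *Atp6v1f* had log2 fold changes of -0.09 to -0.20, and the scarce *Atp6v1c2* had 0.01.

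The accessory subunits are a pair of membrane proteins that help the pump to assemble and travel. *Atp6ap2*, also known as the prorenin receptor, was at 143, 175 and 181 CPM in (+/-) cultures, against 221, 216 and 178 CPM in (+/+) cultures. *Atp6ap1* was at 284, 330 and 328 CPM in (+/-) cultures, against 358, 353 and 334 CPM in (+/+) cultures. *Atp6ap1* was the other pump gene whose genotypes did not overlap, with a log2 fold change of -0.15 (SE 0.10), an exact permutation p of 0.1 and an edgeR adjusted p of 0.380. *Atp6ap2* overlapped through animals 508 and 513, with -0.30 (SE 0.13) and an edgeR adjusted p of 0.226.

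The V0 sector held pump genes on both sides of 0, with 3 positive and 6 negative log2 fold changes among 9. *Atp6v0a2*, the a subunit known from Golgi and endosomes, was at 83.6, 71.9 and 81.6 CPM in (+/-) cultures, against 47.9, 49.7 and 75.2 CPM in (+/+) cultures. Animal 513 lay among the (+/-) animals, and the other (+/+) animals below them. The log2 fold change was 0.46 (SE 0.18) with an edgeR adjusted p of 0.199, the smallest among pump subunits, and without animal 513 it was 0.68 with an edgeR adjusted p of 0.021, in a fit that called 18.3% of all genes. *Atp6v0e*, the widespread isoform of the small subunit e, was at 70.6, 60.5 and 55.4 CPM in (+/-) cultures, against 55.8, 43.3 and 52.3 CPM in (+/+) cultures. Animal 508 was just below animal 510, so the genotypes overlapped, at a log2 fold change of 0.30 (SE 0.13) and an edgeR adjusted p of 0.224. These 2 genes were the pump subunits with an unadjusted p under 0.05.

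The other V0 genes had negative values or hardly any level. *Atp6v0a1*, the a subunit of synaptic vesicles and neuronal lysosomes, was at 263, 374 and 441 CPM in (+/-) cultures, against 409, 478 and 402 CPM in (+/+) cultures. *Atp6v0e2*, the e isoform enriched in brain, was at 255, 340 and 346 CPM in (+/-) cultures, against 375, 377 and 330 CPM in (+/+) cultures. *Atp6v0d1*, which links the rotor to the membrane ring, was at 144, 192 and 197 CPM in (+/-) cultures, against 209, 212 and 195 CPM in (+/+) cultures. In these 3 genes animal 505 was lowest, and the log2 fold changes of -0.26, -0.20 and -0.21 were -0.08, -0.07 and -0.08 without it. The proteolipids of the proton-carrying ring, *Atp6v0c* and *Atp6v0b*, had log2 fold changes of -0.23 and -0.17, with edgeR adjusted p-values of 0.401 and 0.444.

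Within an animal, the ratio of a neuron-enriched to a widely expressed isoform does not depend on library size. The log2 ratio of *Atp6v0e2* to *Atp6v0e* was 1.85, 2.48 and 2.63 in (+/-) cultures, against 2.74, 3.11 and 2.65 in (+/+) cultures. Each (+/-) culture had a lower ratio than each (+/+) culture, with animals 508 and 513 nearly equal, and the means differed by -0.51 (2.32 ± 0.42 against 2.83 ± 0.24, SD, n = 3 each). The log2 ratio of *Atp6v0a1* to *Atp6v0a2* was 1.65, 2.37 and 2.43 in (+/-) cultures, against 3.08, 3.25 and 2.41 in (+/+) cultures. The means differed by -0.77, but animal 513 fell within the (+/-) range. The log2 ratio of *Atp6v1g2* to *Atp6v1g1* was -0.33, 0.34 and 0.60 in (+/-) cultures, against 0.35, 0.67 and 0.50 in (+/+) cultures, and the ranges overlapped widely. The ratios were not tested.

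**Figure D4:**
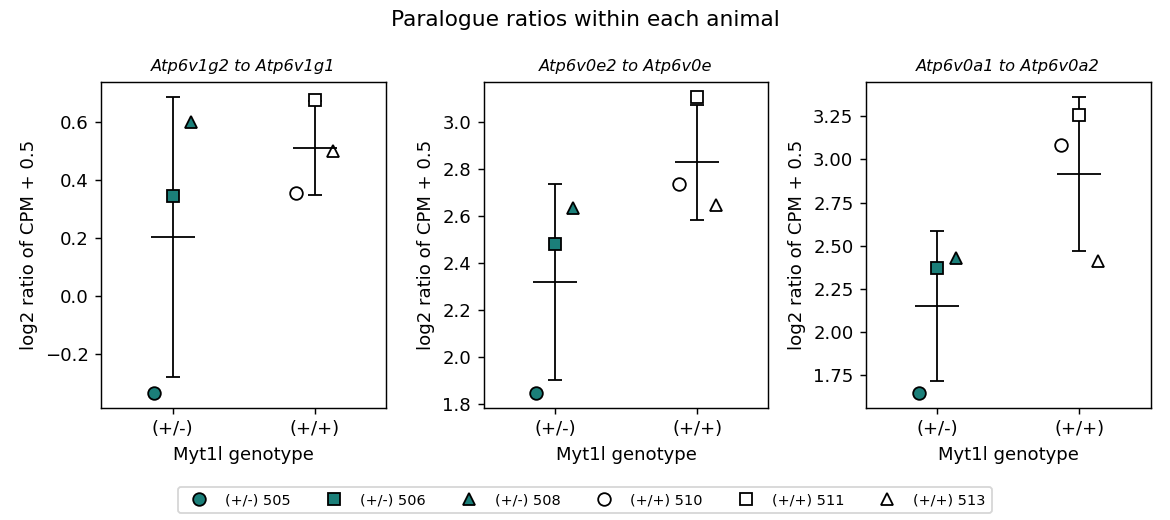
Each symbol is the log2 ratio of CPM + 0.5 of a pair of paralogues in 1 animal, filled for (+/-) and open for (+/+), with the mean and SD of 3 animals as a bar. Animal 505 is lowest in the 3 pairs, and the genotypes do not overlap for *Atp6v0e2* to *Atp6v0e* alone.

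Per kilobase of exon, the 11 cathepsins and LAMP genes ran from 1.70 to 744 CPM per kb in (+/+) cultures. The pump subunits at the floor ran from 0.111 to 152 CPM per kb in (+/+) cultures. *Ctsd* led at 860 CPM per kb in (+/-) cultures and 744 CPM per kb in (+/+) cultures, with the limit on its level given above. *Lamp1* at 333 CPM per kb in (+/-) and 289 in (+/+) cultures and *Ctsb* at 302 in (+/-) and 284 in (+/+) cultures came next and were within 1 SD of each other in (+/+) cultures. *Ctsl*, *Lamp2* and *Ctsa* followed at 31.8 to 49.8 CPM per kb in (+/-) cultures and 29.6 to 45.7 CPM per kb in (+/+) cultures. *Ctsh* stood at 9.10 CPM per kb in (+/-) and 4.87 in (+/+) cultures, and *Ctsc*, last of the 11, at 2.62 in (+/-) and 1.70 in (+/+) cultures. The order of the 11 was the same in both genotypes. Among pump subunits *Atp6v0e2* led at 132 CPM per kb in (+/-) and 152 in (+/+) cultures, and 17 further subunits lay between 11.7 and 104 CPM per kb in (+/-) cultures and between 8.56 and 115 CPM per kb in (+/+) cultures. Neighbours such as *Atp6ap1* and *Atp6v0d1* (104 and 99.1 CPM per kb in (+/-) cultures, 115 and 114 in (+/+) cultures) differed by less than their SD.

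**Figure D5:**
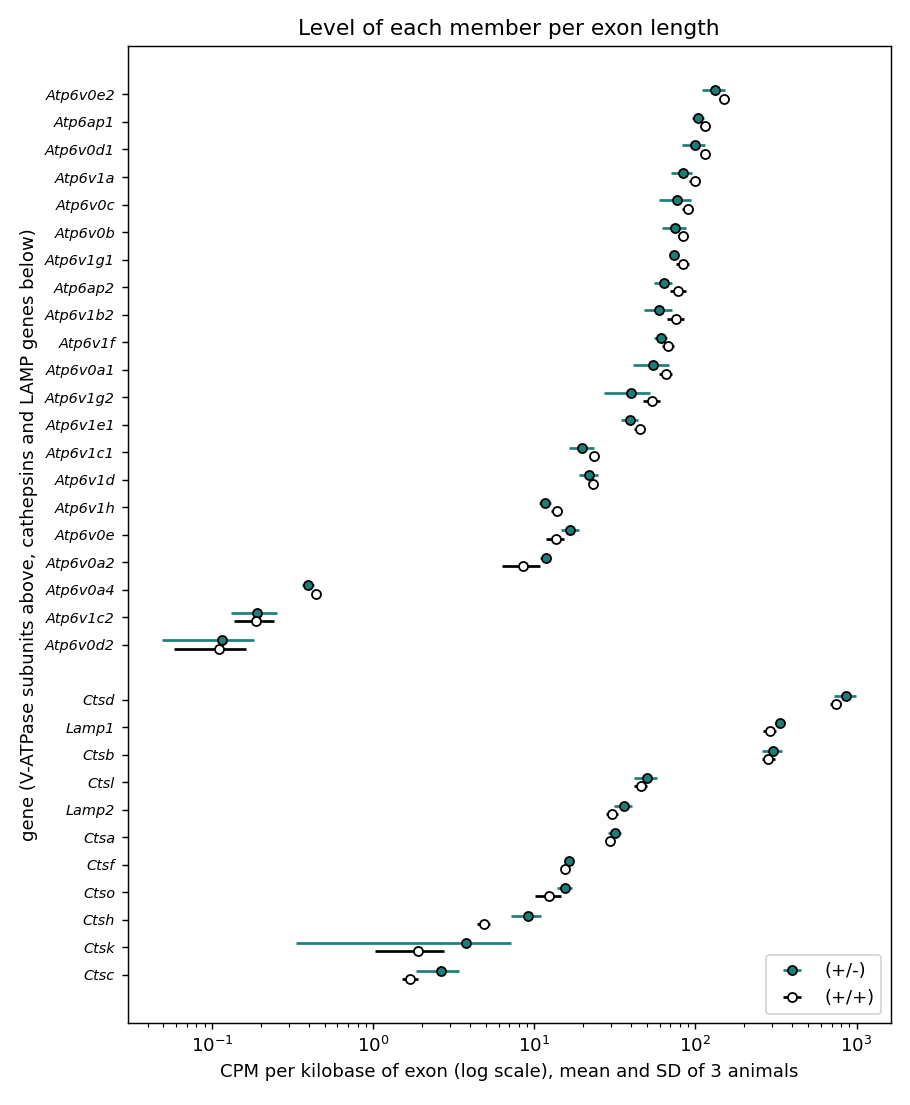
Points give the mean CPM per kilobase of exon on a log scale with the SD of 3 animals, filled for (+/-) and open for (+/+), ordered by the (+/+) level within each class. The lowest 3 pump subunits, *Atp6v0a4*, *Atp6v1c2* and *Atp6v0d2*, lie below 1 CPM per kb, apart from the other 18.

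The isoforms known from kidney, bone or other specialised tissue were at the edge of detection. *Atp6v0a4*, the a subunit of kidney intercalated cells, was at 1.84 to 2.16 CPM in (+/-) cultures and 2.14 to 2.32 CPM in (+/+) cultures. *Atp6v1c2* was at 0.397, 0.555 and 0.295 CPM in (+/-) cultures, against 0.461, 0.490 and 0.281 CPM in (+/+) cultures, and *Atp6v0d2*, known from osteoclasts and kidney, at 0.507, 0.290 and 0.148 CPM in (+/-) cultures, against 0.442, 0.156 and 0.304 CPM in (+/+) cultures. *Atp6v0a4*, with 560 counts over all animals, shared 5.21% of its exonic bases with the same-strand gene *D630045J12Rik*, which had 11889 counts. *Atp6v1c2*, with 111 counts, shared 2.3% with the opposite-strand gene *Pdia6*, which had 42896, so both low levels are uncertain. The genotypes overlapped in these 3. Just inside the floor, *Atp6v0d2* reached it through animal 505 alone and *Atp6v1c2* through animal 506 alone, both (+/-). With members at 5 CPM or more, the contrast of pump subunits with cathepsins and LAMP genes was -0.48. Just outside the floor were *Ctsw*, a cathepsin of cytotoxic lymphocytes, with 47 counts over all animals and 0.245 CPM at most, *Atp6v1b1*, the B subunit of kidney and inner ear, with 16 counts, and *Atp6v1e2* with 12. *Ctsg* had 2 counts and *Ctse* 1. *Atp6v1g3*, *Ctsj*, *Ctsm*, *Ctsq* and *Ctsr* had 0 counts in every animal, which allows up to 0.0568 to 0.0738 CPM per animal (3 counts, counting error only).

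A promoter feature that the choice by symbol did not use was found in some members of both classes. RefSeq promoters (GRCm38.p6, 250 bases before to 50 after the start) were at hand for 24 of the 32 members, 15 pump subunits and 9 cathepsins or LAMP genes, and were searched for CACGTG, which reads the same on both strands. It was found in 5 of the 9 cathepsins and LAMP genes (55.6%) and in 4 of the 15 pump subunits (26.7%). Of all 27025 genes with a promoter, whether or not they reached the floor in these cultures, 8.09% held CACGTG. The stretches around it are shown because the same letters occur in genes of both classes, with CACGTG in capitals, 5′ to 3′ on the strand of the gene.
*Lamp1*, chr8:13159096-13159155, plus strand: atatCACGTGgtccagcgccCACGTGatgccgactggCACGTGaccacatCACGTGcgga
*Ctsd*, chr7:142387908-142387937, minus strand: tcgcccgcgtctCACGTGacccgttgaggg
*Ctsa*, chr2:164833758-164833787, plus strand: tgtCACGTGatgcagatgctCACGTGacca
*Ctsf*, chr19:4855074-4855103, plus strand: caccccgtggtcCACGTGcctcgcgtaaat
*Ctsl*, chr13:64370739-64370768, minus strand: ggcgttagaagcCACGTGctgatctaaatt
*Atp6v0b*, chr4:117887339-117887368, minus strand: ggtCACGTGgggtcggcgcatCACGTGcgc
*Atp6v0d1*, chr8:105566050-105566079, minus strand: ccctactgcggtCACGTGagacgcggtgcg
*Atp6v0e*, chr17:26676387-26676416, plus strand: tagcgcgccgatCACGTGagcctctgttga
*Atp6v1a*, chr16:44139373-44139402, minus strand: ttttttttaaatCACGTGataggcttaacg

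*Lamp1* held 4 copies within 60 bases, the first base of each lying 61, 45, 28 and 15 bases before the start, and *Ctsd* a second copy 245 bases before the start. The longer palindrome TCACGTGA, which contains CACGTG, was found in 2 of the 9 cathepsins and LAMP genes (22.2%), *Ctsa* and *Ctsd*, and in 3 of the 15 pump subunits (20.0%), *Atp6v0d1*, *Atp6v0e* and *Atp6v1a*, beside 1.12% of all genes. Members with CACGTG lay on both sides of 0, with log2 fold changes of 0.07 to 0.21 for the 5 cathepsins and LAMP genes and of -0.25, -0.21, -0.17 and 0.30 for *Atp6v1a*, *Atp6v0d1*, *Atp6v0b* and *Atp6v0e*. The MYT1L motif named by the study, AAAGTT, searched on both strands, was found in the promoters of *Ctsl* and *Lamp2* and in 0 of the 15 pump subunits, beside 15.9% of all genes. These matches describe the letters of the windows and say nothing of binding.

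The partners of the pump and of the cathepsins were read from lists of lysosomal genes. Of 12 tested genes that assemble the pump or belong to it under other names, 9 had a negative log2 fold change, with a median of -0.19, and 2 were lower at an unadjusted p under 0.05, beside 9.11% of all genes. *Rogdi*, which belongs to the RAVE-like complex that joins V1 to V0, was at 47.1, 65.8 and 57.5 CPM in (+/-) cultures, against 77.0, 75.3 and 64.1 CPM in (+/+) cultures, with an edgeR adjusted p of 0.204. *Ncoa7*, a TLDc-domain protein that binds the pump, was at 24.3, 36.3 and 38.4 CPM in (+/-) cultures, against 44.1, 51.3 and 38.9 CPM in (+/+) cultures, with an edgeR adjusted p of 0.215. The genotypes did not overlap in *Ncoa7*, but animals 508 and 513 were nearly equal.

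Of 32 other lysosomal hydrolases, 24 had a positive log2 fold change, with a median of 0.14, and 7 were higher and 1 lower at an unadjusted p under 0.05, beside 13.2% of all genes higher and 9.11% lower. *Dpp7*, a dipeptidyl peptidase, was at 16.2, 15.4 and 17.1 CPM in (+/-) cultures, against 10.4, 11.0 and 14.4 CPM in (+/+) cultures. *Gusb*, the lysosomal beta-glucuronidase, was at 39.6, 26.5 and 24.4 CPM in (+/-) cultures, against 19.4, 19.3 and 23.9 CPM in (+/+) cultures. Neither overlapped between the genotypes, with edgeR adjusted p-values of 0.171 and 0.188. Of 18 genes for lysosomal membrane proteins and enzyme cofactors, 13 had a positive log2 fold change, with a median of 0.16, and 3 were higher at an unadjusted p under 0.05, beside 13.2% of all genes. *Cln3*, the gene of juvenile neuronal ceroid lipofuscinosis, was at 23.9, 21.7 and 22.2 CPM in (+/-) cultures, against 14.3, 12.9 and 19.8 CPM in (+/+) cultures, with a log2 fold change of 0.53 (SE 0.16) and an edgeR adjusted p of 0.168. The level of *Cln3* was close in the 3 (+/-) animals.

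The inhibitors, sorting genes and regulators had medians near 0. Of 4 tested cathepsin inhibitors the median log2 fold change was -0.02, and *Cst3*, the secreted cystatin C, was at 1919, 2214 and 1774 CPM in (+/-) cultures, against 1674, 1563 and 2019 CPM in (+/+) cultures, with overlap. Of 6 genes that sort hydrolases by mannose-6-phosphate the median was 0.06 and 0 had an unadjusted p under 0.05. Of 10 tested regulators the median was -0.05, with 1 higher and 1 lower at an unadjusted p under 0.05, a share near that of all genes. These were *Mitf*, a relative of TFEB, at 9.76, 9.00 and 7.52 CPM in (+/-) cultures, against 6.86, 6.68 and 7.47 CPM in (+/+) cultures, and *Rragd*, a GTPase that controls TFEB at the lysosome, at 88.8, 102 and 103 CPM in (+/-) cultures, against 124, 128 and 103 CPM in (+/+) cultures. *Tfeb* itself was at 27.0, 22.4 and 19.1 CPM in (+/-) cultures, against 21.6, 18.1 and 18.7 CPM in (+/+) cultures. These 3 regulators had edgeR adjusted p-values of 0.220 for *Mitf*, 0.223 for *Rragd* and 0.339 for *Tfeb*.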

How the data were processed

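Per library, the authors deposited raw counts of reads on each gene, made from dUTP libraries mapped to mm10 with STAR as the methods and the processing notes state. The counting tool and its strand setting are not given in the sources used here. A deposited table of normalised counts, and one of the authors' own fold changes and p-values from DESeq2, were not used. Animal totals, summed over 2 libraries, were tested with edgeR 4.0.16 in R 4.3.3 (filterByExpr by genotype, TMM, quasi-likelihood test, Benjamini-Hochberg over 18264 genes, adjusted p under 0.1), after the procedure was tested on simulated data. CPM values were TMM-scaled, and logarithms used a pseudocount of 0.5 CPM. The p-values set the difference between genotypes against the spread between these animals. With no source on separate litters, a difference between litters cannot be told apart from one between genotypes.

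Alternatives were DESeq2 1.42.0 with and without genetic sex (read from *Xist*), its size factors, other low-count filters, limma 3.58.1 voom on 12 libraries, single libraries and each animal left out. Members and lists were chosen with earlier results of these data known. Named with values were the 4 smallest p-values among V1, among V0 with accessory, and among cathepsins with LAMP genes, paralogue pairs, cathepsins reaching 100 CPM, and up to 3 genes of each other list, of which some are not reported here. *Lamp1*, *Ctsk*, *Ctsf*, *Atp6ap1*, *Atp6v1a* and further subunits, and the splits by single animals, were named after their values were seen.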

Additional observations from a re-analysis of the deposited data

How the results depend on the processing

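The contrast of pump subunits with cathepsins and LAMP genes, -0.46, was -0.45 to -0.49 with other size factors, a floor of 5 CPM, LAMP genes or accessory subunits left out, or a single library, and -0.61 to -0.22 with 1 animal left out. Pump subunits higher at an unadjusted p under 0.05, 2 in edgeR, numbered 1 with DESeq2's size factors, 1 with DESeq2, 1 with DESeq2 and genetic sex, 1 with library 2 alone, and 0 to 1 with 1 animal left out. Pump subunits lower, 0 in edgeR, numbered 2 with DESeq2's size factors, 3 with DESeq2, 3 without the low-count filter, 1 with library 1 alone, 1 with library 2 alone, and 0 to 4 with 1 animal left out. Cathepsins and LAMP genes higher, 2 in edgeR, numbered 3 with DESeq2, 3 without the low-count filter, 3 with library 1 alone, and 1 to 3 with 1 animal left out. Members called at an adjusted p under 0.1, 0 in edgeR, numbered 2 with DESeq2, 1 with DESeq2 and genetic sex, 2 without the low-count filter (beside 4.56% of all genes), and 0 to 3 with 1 animal left out, the 3 being *Atp6v0a2*, *Ctsh* and *Ctso* without animal 513 (beside 18.3% of all genes). Limma voom on 12 libraries with the animal as a random effect and the library number as replicate block called 12 members, 5 pump subunits lower, 2 pump subunits higher and 5 cathepsins or LAMP genes higher, beside 20.8% of all genes. At an unadjusted p under 0.05 this replicate block gave 10 pump subunits lower and 6 cathepsins or LAMP genes higher. For this and the other alternative fits no share of all genes was at hand at that threshold, so these counts have no background. The library numbers paired nothing between genotypes (correlation of deviations -0.01). The cause of these differences was not tested.

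Of 303 alternative values for 22 named members, 9 changed sign. The log2 fold change of *Atp6v1c2*, 0.01, was 0.00 with DESeq2's size factors, -0.005 with DESeq2 and -0.26 to 0.20 with 1 animal left out. That of *Atp6v0d2*, 0.06, was -0.26 with DESeq2 and genetic sex and -0.47 to 0.45 with 1 animal left out. With 1 animal left out, that of *Ctsb* ran from -0.024 to 0.183 and that of *Ctsl* from -0.013 to 0.216. With 3 animals per genotype an exact test cannot go below p = 0.1, and members under 1 CPM are limited by depth.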

Other observations

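Markers of cells that line the ventricles had mostly positive log2 fold changes, and 0 passed the test of edgeR at an adjusted p under 0.1. Of 9 markers of ependymal cells and motile cilia, 9 had a positive log2 fold change, with a median of 0.95, and every (+/-) animal lay above every (+/+) animal in 9, beside 15.5% of all genes. *Tmem212*, a marker of ciliated ependymal cells, was at 32.0, 27.1 and 27.6 CPM in (+/-) cultures, against 15.5, 11.4 and 16.6 CPM in (+/+) cultures, with a log2 fold change of 1.00 (SE 0.15) and an edgeR adjusted p of 0.166. This list was even over the (+/-) animals, at a summed level of 1102, 947 and 1036 CPM, against 599, 514 and 757 CPM in (+/+) cultures. The 10 choroid plexus markers were not, at 1556, 732 and 398 CPM in animals 505, 506 and 508, against 274, 170 and 88.6 CPM in (+/+) cultures, and *Ttr* made up most of that sum in animal 505, with 1302 CPM. Of these 10, 9 had a positive log2 fold change and 7 were higher at an unadjusted p under 0.05, beside 13.2% of all genes, whereas *Kl* had -0.33. *Folr1*, a folate receptor of the choroid plexus, was at 64.2, 45.9 and 51.1 CPM in (+/-) cultures, against 30.2, 23.3 and 26.6 CPM in (+/+) cultures.

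The 9 astrocyte markers, with 7 positive log2 fold changes and a median of 0.38, summed to 14062, 13292 and 12748 CPM in (+/-) cultures, against 9226, 9053 and 13788 CPM in (+/+) cultures. Animal 513 thus stood with the (+/-) animals in this list, as it did for *Atp6v0a2* and *Ctso*. *S100b*, a calcium-binding protein of astrocytes, was at 63.9, 51.2 and 57.1 CPM in (+/-) cultures, against 21.4, 19.2 and 38.1 CPM in (+/+) cultures. The 6 tested oligodendrocyte markers had a median of 0.37 and the 5 tested endothelial markers a median of 0.51, with 0 and 1 higher at an unadjusted p under 0.05, beside 13.2% of all genes. No hypothesis was tested.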
